A study of Rattus norvegicus with 4 samples.

Results

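The spots compared here were rich in mRNA of sensory neuron genes in compressed rat trigeminal nerve. They were selected on how much mRNA of the injury factor Atf3 they held. They number 410 of the 6773 spots in the series, namely 205 Atf3-high and 205 Atf3-low spots taken from the same tissue. Spots of the trigeminal neuralgia (TN) areas with at least 10000 unique molecular identifiers (UMIs, counted mRNA molecules) were kept, which left 3091 of 4760. In each TN area the 20% of these spots with the highest summed level of the sensory neuron genes Avil, Isl1, Scn10a, Scn11a and P2rx3 were called neuron-rich, 617 in all. They were then ordered by Atf3 and divided into 3 parts of equal size, of which the one with the most Atf3 (Atf3-high) was compared with the one with the least (Atf3-low) of the same area. TN1 gave 49 spots to each of these, TN2 gave 71 and TN3 gave 85.

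The TN areas TN1, TN2 and TN3 each held the root, the semilunar (trigeminal) ganglion and the near ends of the branches from 1 adult male Sprague-Dawley rat, on the side whose nerve root had been mechanically compressed. The rats were wild type, and behavior was tested 5 days after surgery, with tissue taken after that. The remaining area, the healthy control (HC), held tissue of 2 animals on 1 capture area. The series description takes it from the healthy side of TN animals, whereas the methods describe sham-operated controls, so HC is used below only as a reference level without a test. Sections were 10 μm thick, and a Visium spot covers several cells of different types. The level of a gene is given in counts per 1000000 UMIs (CPM) after summing the spots of a part, so that fewer expressing cells and less mRNA per cell cannot be told apart.

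Atf3 is a transcription factor of the bZIP family that sensory neurons hardly express when intact and switch on when their axons are damaged. Neurons in this state lower many genes of transmitter release, ion channels and neurofilaments, and raise growth-associated proteins and neuropeptides such as galanin and vasoactive intestinal peptide. Satellite glia wrap the neuronal cell bodies of the ganglion, and macrophages gather around injured neurons.

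The rule fixed the Atf3 levels, which are given as a description. The median Atf3 level per spot in the Atf3-high and Atf3-low spots was 195 and 0 CPM in TN1, 452 and 137 CPM in TN2, and 271 and 39.1 CPM in TN3. At the border of the Atf3-high spots, Atf3 stood at 86.4 CPM in the last spot inside and 85.7 CPM in the first outside in TN1, at 333 and 331 CPM in TN2, and at 173 CPM on both sides in TN3. At the border of the Atf3-low spots the last spot inside and the first outside held 26.5 and 26.7 CPM in TN1, 195 and 196 CPM in TN2, and 77.1 and 78.2 CPM in TN3. The split ranks spots within an area and is not a level that holds across areas. The Atf3-low spots of TN2 had a higher median than all neuron-rich spots of TN1, whose median was 45.9 CPM. No neuron-rich spot of TN2 was without Atf3, against 32 of 148 in TN1, 26 of 256 in TN3 and 227 of 269 in HC. The Atf3-low spots are therefore called by their rank and not uninjured or spared.

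The 5 genes that chose the neuron-rich spots are likewise described only. Their summed level in the Atf3-high and Atf3-low spots was 1731 and 1923 CPM in TN1, 1071 and 1564 CPM in TN2, and 1066 and 1379 CPM in TN3, and it was 2107 CPM in HC. Scn10a, a sodium channel of nociceptors, held 197 and 267 CPM in the Atf3-high and Atf3-low spots of TN1, 86.2 and 189 CPM in TN2, and 117 and 194 CPM in TN3. P2rx3, an ATP receptor of nociceptors, held 463 and 474 CPM in TN1, 422 and 373 CPM in TN2, and 277 and 233 CPM in TN3. The Atf3-high spots thus held less of the summed neuron genes in all 3 areas, and this stands beside every neuronal gene described below. The last spot inside and first outside the neuron-rich group summed to 1431 and 1431 CPM in TN1, 830.2 and 829 CPM in TN2, and 735 and 729 CPM in TN3.

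The 6 sums held between 1795113 and 3531962 UMIs. The median per spot was 46876 UMIs in the Atf3-high and 37758 in the Atf3-low spots of TN1, 44300 and 48629 in TN2, and 30120 and 36959 in TN3, so depth did not move with Atf3 in 1 direction. Between 346 and 979 barcodes were shared by any pair of areas, since the same barcode grid is printed in each, and spots were told apart by area. Spots of 1 area share an animal and were not taken as replicates: the test compared 3 pairs of sums.

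The Atf3-high spots held more mRNA of injury peptides, growth genes and macrophage genes, and less of many potassium channel and neurofilament genes. Of 9838 genes tested with edgeR's quasi-likelihood test with the area as a block and Benjamini-Hochberg adjustment, 461 were higher (4.69%) and 445 lower (4.52%) in the Atf3-high spots at an adjusted p under 0.05, together 9.21%. Of these, 452 and 434 moved the same way in all 3 areas. Over all genes tested, 19.6% were higher and 22.7% lower in all 3 areas. The median log2 fold change was 0.55 for the higher and −0.50 for the lower genes, and 0.01 for all genes tested. A change of more than 2-fold was seen in 88 higher and 47 lower genes. Without TN3 the counts were 324 and 275, and with no area block edgeR called 0 genes, with 555 at an unadjusted p under 0.05.

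**Figure D1:**
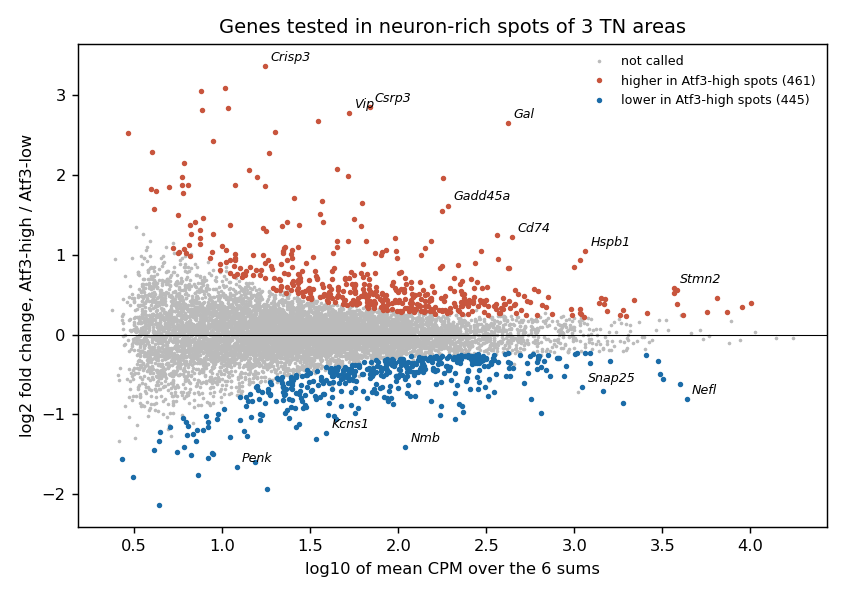
Each point is a gene tested, with the log10 of its mean CPM over the 6 sums on the x axis and the log2 fold change of the Atf3-high over the Atf3-low spots on the y axis. The 461 genes called higher reached up to 3.37 (Crisp3) and the 445 called lower down to −2.13 (Syt15, which did not meet the rule for named genes). Gal stood at 2.65, Nefl at −0.81 and Nmb at −1.41.

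The secreted injury peptides and cytokines were mostly higher in the Atf3-high spots. Of 16 such genes, 10 had enough UMIs for a test, 8 were higher (80%) and 0 lower, where 4.69% of all genes tested were higher. The median log2 fold change of the 10 was 1.09. The filter on low counts could keep a gene through its Atf3-high sums and drop genes low in both parts. Without that filter 15 of the list were tested, 11 higher and 0 lower, with a median of 0.77. Of 16929 genes then tested, 3.47% were higher. The gene lists were also chosen with earlier results of these data known. The shares here and in the lists below are therefore descriptions. Gal, which encodes galanin, stood at 456, 1196 and 511 CPM in the Atf3-high spots of TN1, TN2 and TN3 and at 58.5, 227 and 79.5 CPM in the Atf3-low spots. Every Atf3-high sum was above every Atf3-low sum, and the neuron-rich HC spots held 20.4 CPM. The log2 fold change of Gal was 2.65 ± 0.09 (SE from edgeR's fit, n = 3 pairs; edgeR adjusted p = 3.68e-14). Here and below the SE leans mostly on spread shared across genes and is not the spread of a gene between the 3 animals. By area, the difference of log2(CPM + 1) for Gal was 2.94, 2.39 and 2.67. Vip, which encodes vasoactive intestinal peptide, stood at 56.2, 128 and 91.0 CPM in the Atf3-high and 3.90, 20.1 and 15.5 CPM in the Atf3-low spots, a log2 fold change of 2.77 ± 0.15 (edgeR adjusted p = 9.47e-11). HC held 0.847 CPM of Vip, so that even the Atf3-low spots of TN were above it. Galanin and vasoactive intestinal peptide are neuropeptides that sensory neurons make in small amounts until their axons are cut.

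The promoters of Gal and Vip are shown with that of the growth gene Sprr1a, because these 3 genes were among those that rose most in the peptide and growth groups, hold a match to a motif below, and ATF3 binds DNA as a dimer with JUN or other bZIP factors. Csrp3, which rose as much as Sprr1a, had no entry in the table of promoters. The sequences are RefSeq's for GRCr8, from 250 bases before to 50 bases after the start site, 5′ to 3′ on the strand of the gene. They lie at chr1:210084523-210084822 (Gal, minus strand), chr1:44470230-44470529 (Vip, plus strand) and chr2:180752576-180752875 (Sprr1a, minus strand). Capitals mark an AP-1 match (TGANTCA) or a half-site of the cAMP response element (TGACG) that is not part of a full element (TGACGTCA), searched on both strands.
Gal: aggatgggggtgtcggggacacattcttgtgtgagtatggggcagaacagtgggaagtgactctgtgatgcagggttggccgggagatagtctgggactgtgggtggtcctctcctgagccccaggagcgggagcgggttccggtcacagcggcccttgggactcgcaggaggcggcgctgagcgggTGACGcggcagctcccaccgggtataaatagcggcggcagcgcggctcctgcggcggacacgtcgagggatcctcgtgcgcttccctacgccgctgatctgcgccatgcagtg
Vip: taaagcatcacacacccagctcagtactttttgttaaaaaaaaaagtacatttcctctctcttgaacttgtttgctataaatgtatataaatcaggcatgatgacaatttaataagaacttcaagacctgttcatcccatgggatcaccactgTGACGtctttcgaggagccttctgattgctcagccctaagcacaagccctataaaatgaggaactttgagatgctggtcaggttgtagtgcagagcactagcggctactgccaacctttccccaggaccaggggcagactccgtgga
Sprr1a: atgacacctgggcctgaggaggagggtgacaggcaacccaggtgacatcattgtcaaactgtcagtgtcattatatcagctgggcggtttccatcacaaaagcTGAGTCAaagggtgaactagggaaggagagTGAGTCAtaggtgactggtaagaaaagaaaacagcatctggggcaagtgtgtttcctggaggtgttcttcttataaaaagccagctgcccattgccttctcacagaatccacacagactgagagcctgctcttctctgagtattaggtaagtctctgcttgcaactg
Of the 12 named rises, 9 had a promoter in the table, of which 2 held an AP-1 match (Sprr1a and Cryba2), 2 the half-site (Gal and Vip) and 0 the full element, while those of Crisp3, Il24, Tgm1, Reg3b and Ecel1 held none of these letters. In Sprr1a the AP-1 matches began at bases −147 and −117 from the start site, in Vip the half-site began at base −97 and in Gal at base −63. Over the 324 genes called higher whose promoter was in the table, 7.41% held an AP-1 match, against 4.85% of 309 called lower, 4.77% of 7134 tested and 7.33% of all 24206 promoters. The letters TGACG, here counted also inside a full element, were in 27.5%, 29.8%, 33.0% and 22.2% of the same promoters. The full element was in 3.70%, 4.21%, 3.25% and 1.91%. A match of letters is a description and does not show that a factor binds there.

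Other secreted members were less abundant than Gal or changed less. Reg3b, a lectin of the regenerating family, held 36.3, 116 and 65.1 CPM in the Atf3-high and 7.24, 36.5 and 9.46 CPM in the Atf3-low spots, with a log2 fold change of 2.08 ± 0.16 (SE; edgeR adjusted p = 2.03e-08). The Atf3-high spots of TN1 and the Atf3-low spots of TN2 were level for Reg3b, although each area rose. Il24, a cytokine of the interleukin 10 family that is not on the list and was named for the size of its rise, held 11.7, 30.6 and 13.9 CPM against 0, 4.53 and 1.58 CPM and had 0 UMIs in the neuron-rich HC spots. Adcyap1, the neuropeptide PACAP, was a more abundant member and changed less, at 126, 161 and 119 CPM in the Atf3-high and 69.6, 106 and 75.1 CPM in the Atf3-low spots (log2 fold change 0.71 ± 0.09; edgeR adjusted p = 1.33e-05). Ucn, Cck, Csf1 and Ccl2 also rose, by 1.88, 1.41, 0.76 and 0.63 on the log2 scale. Within bins of the 5 neuron genes Cck was at 0.91 and not past the threshold (edgeR adjusted p = 0.101). Csf1 is the macrophage growth factor that injured sensory neurons release and Ccl2 a chemokine for monocytes. Bdnf had a log2 fold change of 0.48 (edgeR adjusted p = 0.0504) and Cntf one of 0.36, neither past the threshold. Among the members not tested, Npy had 36 UMIs in the Atf3-high and 6 in the Atf3-low spots of the 3 areas together.

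**Figure D2:**
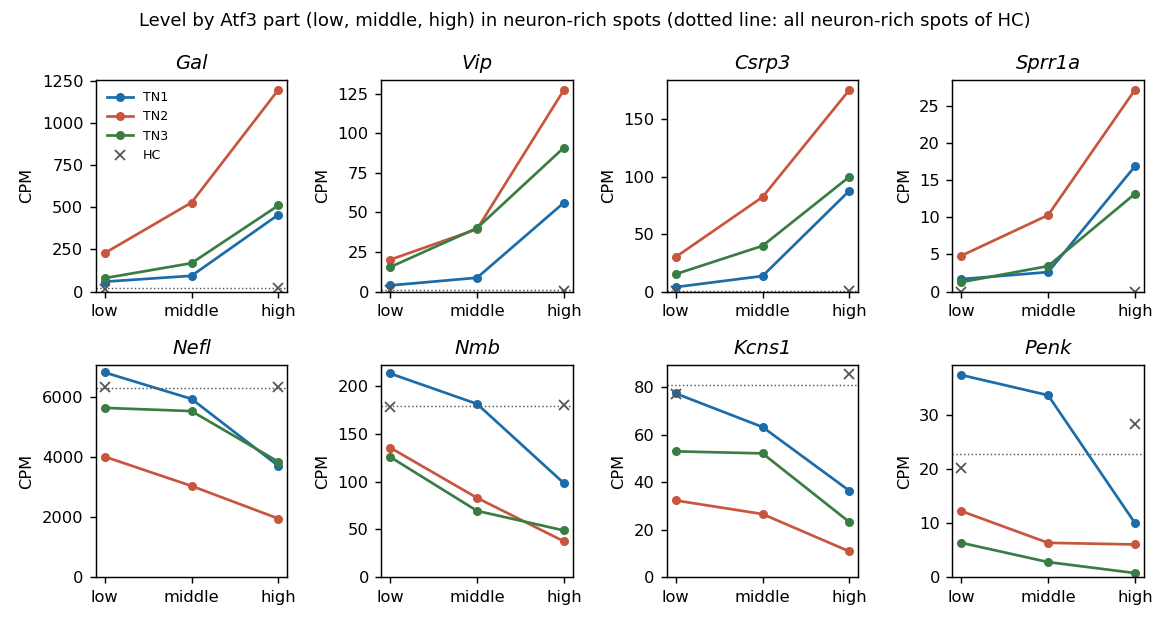
Each panel gives the CPM of 1 gene on the y axis in the low, middle and high part of neuron-rich spots by Atf3, with 1 line per TN area, crosses for the HC spots ordered the same way and a dotted line for all neuron-rich HC spots. Gal, Vip, Csrp3 and Sprr1a rose from the Atf3-low to the Atf3-high spots in TN1, TN2 and TN3 and were lower in HC than in every TN part, and Nefl, Nmb, Kcns1 and Penk fell.

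Most growth and regeneration genes were higher in the Atf3-high spots. Of 24 genes, 21 were tested, 17 were higher and 1 was lower (85.7% called, against 9.21% of all genes tested). The median log2 fold change was 1.04. Without the filter on low counts 23 were tested, 18 higher and 1 lower, with a median of 0.95. Sprr1a, a small proline-rich protein known from regenerating sensory neurons, stood at 16.9, 27.1 and 13.2 CPM in the Atf3-high and 1.67, 4.81 and 1.26 CPM in the Atf3-low spots, with 0 UMIs in the neuron-rich HC spots. Csrp3, a LIM domain protein of muscle, stood at 87.8, 175 and 99.9 CPM and 3.90, 30.012 and 15.1 CPM, against 0.659 CPM in HC. Sprr1a had a log2 fold change of 2.84 ± 0.29 and Csrp3 one of 2.85 ± 0.16 (SE; edgeR adjusted p = 7.62e-07 and 2.01e-10). For both genes every Atf3-high sum was above every Atf3-low sum. Gap43, the growth cone protein by which regenerating axons are often recognized, was abundant in both, at 1112, 1725 and 995 CPM in the Atf3-high and 600.0, 837 and 684 CPM in the Atf3-low spots. Its log2 fold change was 0.84 ± 0.08 (SE; edgeR adjusted p = 6.92e-07), and HC held 557 CPM.

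The stress protein gene Hspb1, a small heat shock protein, held 1293, 2115 and 1239 CPM in the Atf3-high and 660.1, 968 and 629.9 CPM in the Atf3-low spots. Its log2 fold change was 1.04 ± 0.07 (SE; edgeR adjusted p = 3.08e-09). Gadd45a, a growth arrest and DNA damage gene, held 214, 425 and 226 CPM and 57.4, 136 and 89.9 CPM, a log2 fold change of 1.62 ± 0.09 (edgeR adjusted p = 2.11e-10). Flrt3, an adhesion protein of growing neurites, Ecel1, a membrane endopeptidase made by damaged neurons, and Cckbr, a cholecystokinin receptor, rose by 1.65, 1.97 and 1.77 on the log2 scale. The tubulins Tubb6 and Tubb2b and the microtubule regulator Stmn4 rose by 1.17, 0.93 and 1.09. Nrn1, neuritin, went the other way, at 167, 71.3 and 112 CPM in the Atf3-high and 286, 187 and 214 CPM in the Atf3-low spots (log2 fold change −1.005 ± 0.10; edgeR adjusted p = 3.47e-07). Basp1, Anxa2 and Plat were not past the threshold, at 0.08, 0.14 and 0.27.

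Injury transcription factors other than Atf3 changed less. Of 12, 8 were tested, 4 were higher (50%, against 4.69% of all genes tested), 0 were lower and the median was 0.40. Jun, a partner of ATF3 in AP-1, held 176, 344 and 253 CPM in the Atf3-high and 128, 208 and 140.4 CPM in the Atf3-low spots, with 88.7 CPM in HC. Its log2 fold change was 0.71 ± 0.08 (SE; edgeR adjusted p = 5.01e-06), and each area rose. Smad1, Klf7 and Cebpd rose by 0.79, 0.74 and 0.57, and Klf7 was not past the threshold within bins of the 5 neuron genes (edgeR adjusted p = 0.0817) or without TN1 or TN3. Stat3 was not past the threshold, at 204, 246 and 217 CPM in the Atf3-high and 197, 231 and 205 CPM in the Atf3-low spots (log2 fold change 0.09, 95% interval −0.06 to 0.25). Ddit3, which encodes CHOP, had a log2 fold change of −0.25 (edgeR adjusted p = 0.216). Sox11 and Klf6 had only 15 and 8 UMIs in the 6 sums and could not be tested.

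**Figure D3:**
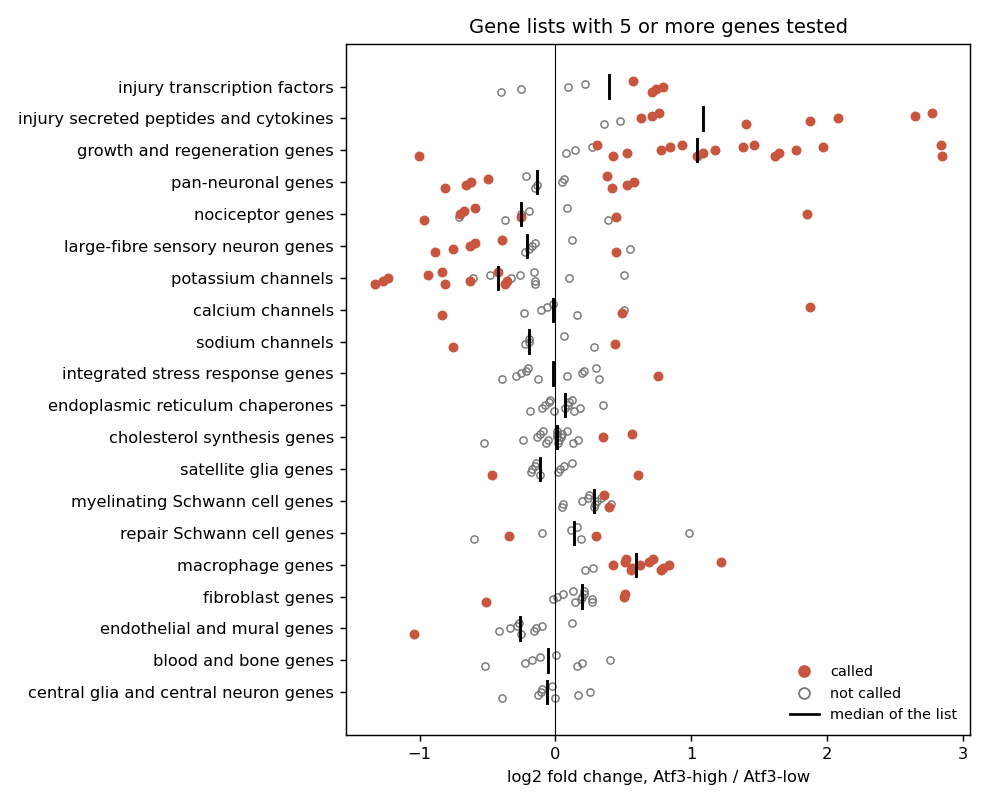
Each point is a tested gene of the list named on the y axis, with the log2 fold change of the Atf3-high over the Atf3-low spots on the x axis, filled where called and open where not, and a bar at the median of the list. Lists with at least 5 tested genes are drawn, except MHC class II, ribosomal protein and respiratory chain genes, which were put together after their values had been seen. The drawn lists were themselves chosen with earlier results of these data known. The bars of the secreted peptides (1.09), the growth genes (1.04) and the macrophage genes (0.59) lie farthest to the right, and that of the potassium channels (−0.42) farthest to the left.

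The 12 largest rises past the threshold, among genes that rose in all 3 areas and had a mean of at least 10 CPM, were Crisp3, Il24, Csrp3, Sprr1a, Vip, LOC100912228, Gal, Tgm1, Cryba2, Reg3b, Stac2 and Ecel1. Crisp3, a cysteine-rich secretory protein, led with 39.8, 39.8 and 17.1 CPM in the Atf3-high and 1.11, 6.80 and 0.315 CPM in the Atf3-low spots and 0 UMIs in the neuron-rich HC spots. Its log2 fold change was 3.37 ± 0.31 (SE; edgeR adjusted p = 1.75e-07). Crisp3 was counted in 53.1%, 59.2% and 24.7% of the Atf3-high spots of TN1, TN2 and TN3 and in 4.08%, 26.8% and 1.18% of the Atf3-low spots. LOC100912228, for which the tables used here give no other name, held 47.1, 101 and 33.1 CPM against 3.34, 19.8 and 4.42 CPM (log2 fold change 2.68 ± 0.18). Tgm1, a transglutaminase that cross-links proteins, held 16.4, 64.4 and 21.3 CPM against 1.67, 13.3 and 2.52 CPM, and Cryba2, a beta crystallin, rose by 2.28. Stac2, an adaptor of voltage-gated calcium channels, held 48.0, 135 and 64.0 CPM in the Atf3-high and 12.8, 40.8 and 11.039 CPM in the Atf3-low spots, with 2.07 CPM in HC. All 12 had log2 fold changes of at least 1.97.

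**Figure D4:**
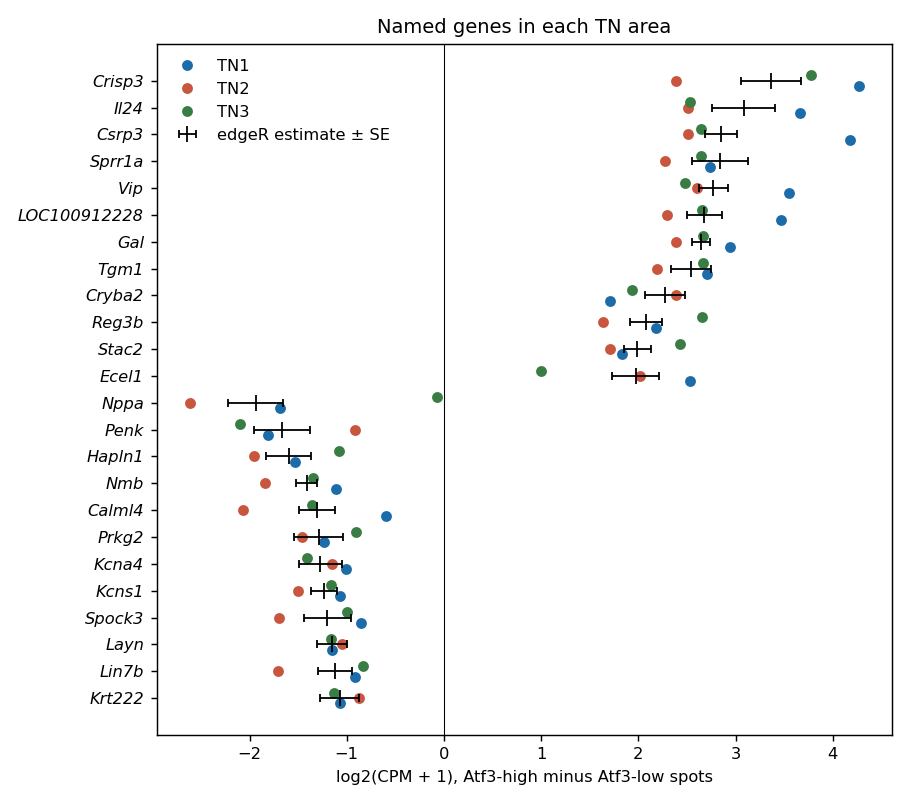
The x axis gives the difference of log2(CPM + 1) between the Atf3-high and Atf3-low spots in each TN area (points) and edgeR's log2 fold change with its standard error (bar) for the 12 largest rises and 12 largest falls named on the y axis. All points of the rises lie to the right of 0, from Ecel1 in TN3 upward, and those of the falls to the left, with Nppa in TN3 close to 0.

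The 12 largest falls, taken by the same rule as the rises, included neuropeptide and potassium channel genes. Nmb, which encodes the itch-related peptide neuromedin B, stood at 98.2, 37.2 and 48.7 CPM in the Atf3-high and 213, 136 and 126 CPM in the Atf3-low spots, against 179 CPM in HC. Every Atf3-high sum was below every Atf3-low sum, with a log2 fold change of −1.41 ± 0.11 (SE; edgeR adjusted p = 2.06e-08). Penk, the enkephalin precursor, held 9.95, 5.9963 and 0.711 CPM in the Atf3-high and 37.3, 12.2 and 6.31 CPM in the Atf3-low spots, and the Atf3-high spots of TN1 lay above the Atf3-low spots of TN3. Its log2 fold change was −1.66 ± 0.29 (edgeR adjusted p = 5.43e-04). Nppa, which encodes atrial natriuretic peptide, held 9.51, 6.94 and 5.33 CPM against 32.9, 47.6 and 5.68 CPM, so that its fall came from TN1 and TN2 and TN3 was nearly level. The middle parts held 6.54, 6.30 and 3.43 CPM of Nppa, below the Atf3-high spots, so it did not fall stepwise with Atf3. It was counted in 32.7%, 40.8% and 14.1% of the Atf3-low spots of TN1, TN2 and TN3. Hapln1, a link protein of perineuronal matrix, and Layn, a hyaluronan receptor, fell in all 3 areas with log2 fold changes of −1.60 and −1.16. Calml4, Prkg2, Spock3, Lin7b and Krt222 completed the 12 with Kcna4 and Kcns1, with log2 fold changes between −1.30 and −1.07. Kcna4 and Spock3 were no longer past the threshold when spots were compared within 5 bins of the neuron genes (edgeR adjusted p = 0.0821 and 0.173).

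Potassium channel genes were lower or not called: 19 of 27 were tested, 10 were lower, 0 were higher and the median was −0.42. The share called lower was 52.6%, where 4.52% of all genes tested were lower. Kcns1, a silent subunit that modifies Kv2 channels and is tied to pain sensitivity, stood at 36.3, 10.7 and 23.1 CPM in the Atf3-high and 77.4, 32.3 and 53.0 CPM in the Atf3-low spots, with 81.0 CPM in HC. It fell in each area, but the Atf3-high spots of TN1 were slightly above the Atf3-low spots of TN2 (log2 fold change −1.23 ± 0.14; edgeR adjusted p = 2.91e-06). Kcna2, the juxtaparanodal channel of myelinated axons, held 209, 99.4 and 199 CPM in the Atf3-high and 339.8, 188 and 254 CPM in the Atf3-low spots, a log2 fold change of −0.63 ± 0.09 (edgeR adjusted p = 6.57e-05). Kcna4, an A-type channel of small sensory neurons, held 11.7, 5.68 and 7.11 CPM against 24.5, 13.9 and 20.5 CPM (log2 fold change −1.27 ± 0.22). Kcns3, Kcnq5, Kcnv1, Kcnip4, Kcnk1, Kcnd1 and Kcnh2 were also called lower, with log2 fold changes from −1.33 for Kcnv1, which did not fall in TN1, to −0.35 for Kcnd1. Within bins of the 5 neuron genes, 5 of the 19 were called lower and the median was −0.35.

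Calcium and sodium channel genes moved in both directions. Cacna2d1, the auxiliary subunit to which gabapentin and pregabalin bind, stood at 11.7, 29.4 and 14.6 CPM in the Atf3-high and 2.23, 9.34 and 3.47 CPM in the Atf3-low spots, with 5.84 CPM in HC. The log2 fold change was 1.88 ± 0.25 (SE; edgeR adjusted p = 2.05e-05), and every Atf3-high sum was above every Atf3-low sum. Cacnb1 rose by 0.49 and the T-type channel gene Cacna1h had a log2 fold change of −0.84 ± 0.23 (edgeR adjusted p = 0.0254), at 18.2, 3.47 and 9.24 CPM against 28.4, 10.8 and 14.2 CPM. These were the 3 called of 9 calcium channel genes tested, a share of 33.3%, where 9.21% of all genes tested were called. Cacna1h was not past the threshold within bins of the 5 neuron genes (−0.48; edgeR adjusted p = 0.253), with the 10% richest spots (−0.34; edgeR adjusted p = 0.655), or without TN2 (−0.61) or TN3 (−0.96), nor Cacnb1 without TN3 (0.28). Of 7 sodium channel genes tested, Scn3b was higher (0.44) and Scn1a lower (−0.76), but not past the threshold without TN2 (0.27) and without TN1 (−0.61), respectively. The called share of sodium channel genes was 28.6%. Scn9a, the nociceptor channel Nav1.7, held 138, 82.4 and 87.8 CPM and 129, 105 and 115 CPM and was not past the threshold (log2 fold change −0.20, 95% interval −0.40 to 0.01). Neither of 2 HCN channel genes tested was called.

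Genes of neuronal structure split. Of 13 pan-neuronal genes tested, 4 were higher and 4 lower (61.5% called, against 9.21% of all genes tested), and the median was −0.14. The neurofilament gene Nefl stood at 3706, 1947 and 3845 CPM in the Atf3-high and 6834, 4018 and 5648 CPM in the Atf3-low spots, a log2 fold change of −0.81 ± 0.08 (SE; edgeR adjusted p = 5.75e-07). Each area fell, although the Atf3-high spots of TN3 were close to the Atf3-low spots of TN2. Nefm, Nefh and Snap25, a protein of synaptic vesicle fusion, also fell, with log2 fold changes of −0.62, −0.50 and −0.66. By contrast Tubb3, a neuronal tubulin, held 4091, 5012 and 3890.2 CPM in the Atf3-high and 3015, 3209.6 and 2862 CPM in the Atf3-low spots (log2 fold change 0.53 ± 0.07; edgeR adjusted p = 3.11e-05). Stmn2, a microtubule regulator of growth cones, and Prph, the small-fiber filament peripherin, rose by 0.58 and 0.38. Uchl1, which all sensory neurons make, was not past the threshold, at 0.05 (95% interval −0.09 to 0.20). Thus the falls were not shared by every neuronal gene, while the summed pan-neuronal level was 32093 and 35708 CPM in the Atf3-high and Atf3-low spots of TN1, 29305 and 28646 CPM in TN2, and 28295 and 30391 CPM in TN3.

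Nociceptor genes differed between areas. Of 13 tested, 5 were lower and 2 higher (53.8% called, against 9.21% of all genes tested), with a median of −0.26. However, the list's median of log2(CPM + 1) differences reached 0.21 in TN1 and stood at −0.83 in TN2 and −0.38 in TN3. Calca, which encodes calcitonin gene-related peptide, stood at 1352, 771 and 1131 CPM in the Atf3-high spots and 1172, 2635 and 1696 CPM in the Atf3-low spots of TN1, TN2 and TN3. It was thus higher in the Atf3-high spots of TN1 and lower in TN2 and TN3 (log2 fold change −0.70 ± 0.19; edgeR adjusted p = 0.0237). Tac1, the precursor of substance P, had the same order, at 1264, 358 and 899.8 CPM and 1042, 1471 and 1259 CPM, and was not past the threshold (edgeR adjusted p = 0.0525). Trpv1, the capsaicin receptor, Calcb and Ret were lower, with log2 fold changes of −0.67, −0.59 and −0.26, and Gfra3 and Nppb were higher, with 0.45 and 1.85. Among these, only Ret moved the same way in all 3 areas. Trpv1 and Calcb were higher in the Atf3-high spots of TN1, at 89.5 against 86.3 and 196 against 168 CPM. In TN3 Gfra3 was level, at 128 against 130 CPM, and Nppb was lower, with 3 against 6 UMIs. Calca and Calcb are near copies, between which reads may have been split. Within bins of the 5 neuron genes, which include the nociceptor genes Scn10a, Scn11a and P2rx3, 1 nociceptor gene was called lower and 2 higher, and the median was 0.01. Calca was then at −0.34 (edgeR adjusted p = 0.366), and without TN2 it was at −0.18 and not past the threshold.

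Of 12 genes of large-fiber sensory neurons tested, 5 were lower and 1 higher (50% called, against 9.21% of all genes tested), with a median of −0.21. Pvalb, the calcium buffer parvalbumin of proprioceptors and touch neurons, stood at 114, 89.0 and 164 CPM in the Atf3-high and 288, 180.1 and 221 CPM in the Atf3-low spots (log2 fold change −0.89 ± 0.11; edgeR adjusted p = 1.62e-05). Asic1, an acid-sensing channel, held 152, 64.4 and 102 CPM against 184, 129.96 and 149.8 CPM but was not past the threshold within bins of the 5 neuron genes (edgeR adjusted p = 0.103), and Scn1a and Kcna2 of this list are given above. Spp1, osteopontin, which both large neurons and macrophages make, was the member that rose, from 991, 1763 and 1087 CPM to 1280.0, 2128 and 1715 CPM (log2 fold change 0.45 ± 0.08; edgeR adjusted p = 4.82e-04).

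Macrophage genes were higher in the Atf3-high spots. Of 14 tested, 12 were higher (85.7%, against 4.69% of all genes tested) and 0 lower, with a median of 0.59. The summed level of the list was 1555 and 568 CPM in the Atf3-high and Atf3-low spots of TN1, 2619 and 1606 CPM in TN2, 1843 and 1298 CPM in TN3, and 359 and 339 CPM in HC. Cd68, a lysosomal macrophage marker, held 12.1, 65.0 and 50.8 CPM in the Atf3-high and 5.57, 37.4 and 31.9 CPM in the Atf3-low spots, and C1qa, a complement component, 79.1, 161 and 150.4 CPM and 35.1, 101 and 96.2 CPM. Both rose in each area, with log2 fold changes of 0.79 ± 0.14 and 0.78 ± 0.10 (SE; edgeR adjusted p = 4.91e-04 and 1.56e-05). Cd74, the invariant chain of MHC class II, had the largest change of the list, at 699, 724 and 424 CPM against 165, 361 and 268 CPM (log2 fold change 1.22 ± 0.15; edgeR adjusted p = 8.26e-06). The MHC class II genes RT1-Da, RT1-Ba, RT1-Db1 and RT1-Bb, which were chosen after their values were seen, rose by 1.04, 1.17, 1.03 and 1.25, RT1-Bb not past the threshold within bins of the 5 neuron genes (edgeR adjusted p = 0.157). Reads may have been split or lost between related MHC genes, which was not tested. Mrc1 and Cd14, at 0.28 and 0.22, were not past the threshold. Within bins of the 5 neuron genes, 7 of the 14 macrophage genes were called higher and the median was 0.42.

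**Figure D5:**
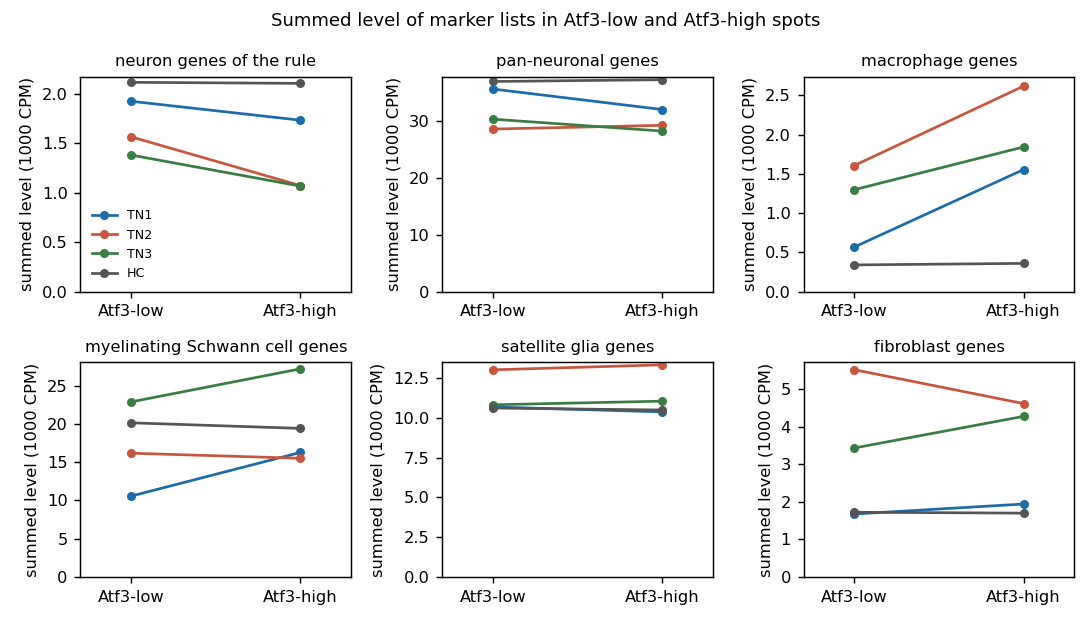
Each panel gives the summed level of a marker list in units of 1000 CPM on the y axis for the Atf3-low and Atf3-high spots, with 1 line per area. The macrophage sum rose in TN1, TN2 and TN3, while in HC it was 359 and 339 CPM in the Atf3-high and Atf3-low spots, the sum of the 5 neuron genes fell in all 3 TN areas, and the myelinating Schwann cell sum rose in TN1 and TN3 but not in TN2.

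Other cell types changed less or not in 1 direction. Of 12 myelinating Schwann cell genes tested, 2 were higher, Pllp among them, and the list's sum was 16263 and 10556 CPM in the Atf3-high and Atf3-low spots of TN1, 15495 and 16160 CPM in TN2, and 27180 and 22864 CPM in TN3. Pllp, a protein of myelin membranes, had a log2 fold change of 0.36 ± 0.10 (edgeR adjusted p = 0.0261) and was not past the threshold within bins of the neuron genes (edgeR adjusted p = 0.853). Of 11 satellite glia genes tested, Fabp7 was lower (−0.47) and Sostdc1 higher (0.61), and the sum was 10381 and 10695 CPM in TN1, 13343 and 13029 CPM in TN2, and 11058 and 10829 CPM in TN3. Among 8 repair Schwann cell genes tested, Erbb3 was higher (0.30) and Ngfr, which neurons also express, lower (−0.34). Dcn and Thbs2 were higher and Ptgds lower among 14 fibroblast genes, and Acta2 was lower among 10 endothelial and mural genes. The called share was 16.7% for myelinating Schwann, 25% for repair Schwann and 18.2% for satellite glia genes. It was 21.4% for fibroblast and 10% for endothelial and mural genes, where 9.21% of all genes tested were called. These lists are short, so a few calls move their share far. Within bins of the 5 neuron genes none of Dcn, Thbs2, Ptgds, Acta2, Erbb3 and Sostdc1 was past the threshold (edgeR adjusted p = 0.151, 0.608, 0.0948, 0.0949, 0.445 and 0.0536). T cell and B cell genes summed to between 3.89 and 16.4 CPM in the 6 sums. No gene was called of 8 for blood and bone, 8 for the central nervous system and 2 for pituitary hormones, with log2 fold changes between −0.52 and 0.56. Spots were also compared within 5 bins of the summed fibroblast, macrophage and myelinating Schwann cell genes. There 362 genes were called higher and 274 lower, and Gal and Cd74 kept log2 fold changes of 2.35 and 0.94. Schwann cell genes made up most of that sum. In the Atf3-high spots of TN1 they held 16263 CPM, fibroblast genes 1940 CPM and macrophage genes 1555 CPM. These bins therefore hardly match macrophage content, and 11 of the 14 macrophage genes were still called higher within them. What part the macrophage, Schwann cell or neuron content of the spots has in the neuronal changes was not tested.

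Levels in the middle part lay between those of the Atf3-low and Atf3-high spots in all 3 areas for 212 of the 461 higher genes (46.0%) and 223 of the 445 lower genes (50.1%). No such share was taken over all genes tested, so these have no background to be read against. Across the neuron-rich spots of an area, Gal and Atf3 levels had a Spearman correlation of 0.63 in TN1 (148 spots), 0.67 in TN2 (213 spots) and 0.55 in TN3 (256 spots), and Nmb and Atf3 one of −0.44, −0.42 and −0.40. These are descriptions over spots that share an animal, a section and a library. Gal and Nmb were named from the split of these same spots by Atf3, so the correlations largely restate that split. They are not separate support. Gal was counted in 95.9%, 100% and 95.3% of Atf3-high spots and in 65.3%, 100% and 89.4% of Atf3-low spots.

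In HC the same rule ordered spots with almost no Atf3, 46 UMIs in the Atf3-high and 0 in the Atf3-low spots, so 47 of its 89 Atf3-high spots held none and were placed by barcode order. Between these parts 47.5% of the genes called higher in TN and 44.9% of those called lower had the same sign, where 50.6% of all genes tested were higher and 49.4% lower. Against all neuron-rich HC spots, the Atf3-high spots of all 3 TN areas were beyond HC in the direction of the call for 394 higher genes (85.5%) and 395 lower genes (88.8%), and the Atf3-low spots were beyond HC for 170 (36.9%) and 171 (38.4%). These shares cover called genes only, and the calls used the same Atf3-high and Atf3-low sums. The share over all genes tested was not taken. Gal, Vip and Csrp3 were above HC in the Atf3-low spots of all 3 areas too, whereas Nefl and Nmb were above the HC level in the Atf3-low spots of TN1 and below it in those of TN2 and TN3. HC is 1 area without a replicate, and its difference from TN was not tested.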

How the data were processed

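Spatial RNA was captured on 4 Visium areas (TN1, TN2, TN3 and HC). The deposited values are raw UMI counts from Space Ranger 1.2.0 (per the matrix header), whole numbers in 1 matrix of 32623 genes and 6773 spots, which the authors did not normalize. The deposited barcodes carry a number for the area (unit other), which the order of areas in the series description maps to the samples. Neither genome build nor annotation is stated, that is, not given in the sources used here. Spots, gene lists and rule were chosen with earlier results of these data known.

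CPM were computed per spot for the rule and per sum for the text. Counts were summed over the Atf3-high and over the Atf3-low spots of each area and tested with edgeR 4.0.16 in R 4.3.3 (TMM, filterByExpr, quasi-likelihood test, area as a block), with Benjamini-Hochberg adjustment at 0.05 over all genes tested. Atf3 and the 5 neuron genes of the rule were left out of the test. Standard errors were taken from the quasi-likelihood F statistic, and 95% intervals from its degrees of freedom (2 residual and 18.8 prior). The sums pair by area because both come from the same animal, and their deviations correlated at 0.67, 0.58 and 0.53. Differences within 1 area are of log2(CPM + 1). The test rests on 3 animals with 1 capture area each. With 2 residual against 18.8 prior degrees of freedom, its standard errors and p-values lean mostly on spread shared across genes. They are therefore not the spread of a single gene between the 3 animals.

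Genes were named by rule: among genes past the threshold, the 12 that rose and the 12 that fell most and moved the same way in all 3 areas with a mean of at least 10 CPM, and the members of 23 gene lists, of which 320 of 326 genes were found. Promoters were matched by symbol in RefSeq's table for GRCr8. Of the 12 named rises, 9 had an entry.

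The alternatives were DESeq2 size factors, DESeq2 1.42.0, no filter on low counts, no block, each area left out, mitochondrial, ribosomal and hemoglobin genes left out, at least 5000 or 20000 UMIs, 10% or 30% of spots, 2 or 4 parts by Atf3 in place of 3, reversed ties, spots weighed within 5 bins of the neuron genes, of UMIs or of other cell type markers, and thinning each spot to 10000 UMIs. On simulated counts for 9724 genes, log2 changes of 0.5, 1, 2 and 3 were called in 50%, 82%, 100% and 100% of the altered genes, and 6 unaltered genes were called. These counts were drawn with edgeR's own fitted spread and with the same change in all 3 areas. They therefore do not show how the test behaves for genes whose change differs between areas. Spot positions and images were not used here, and some list members are not reported here by name.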

Additional observations from a re-analysis of the deposited data

Results flagged for a closer look

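Of the 24 named genes, Penk was listed because its direction in HC was opposite to that in TN, with the lowest counting p of those that were (exact binomial test on UMIs, two-sided p = 0.0333, not adjusted for the 24 genes looked at). That p covers the counting error of pooled UMIs only, and leaves out the spread between spots and animals. The enkephalin precursor had 106 UMIs in the Atf3-high and 68 in the Atf3-low spots of HC, a log2 ratio of 0.47, whereas the Atf3-high spots were below the Atf3-low spots in TN1, TN2 and TN3. In HC 47 of the 89 Atf3-high and all 89 Atf3-low spots held no Atf3 and were placed by barcode order. The difference between HC and TN was not tested, since HC is 1 area. No group held enough areas to look for a single area that stood apart.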

How the results depend on the processing

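The area pairing decided the counts: with no replicate block, edgeR called 0 genes higher and 0 lower, with 555 at an unadjusted p under 0.05, against 2137 with the block. With areas left out in turn, between 324 and 436 genes were called higher and between 275 and 463 lower, the fewest without TN3. With DESeq2, 154 were higher and 92 lower, with at least 20000 UMIs 256 and 204, and with the 10% richest spots 179 and 119. Within bins of the 5 neuron genes 298 and 217 genes were called, within bins of other cell types 362 and 274, and after thinning to 10000 UMIs 128 and 72. Fewer spots, UMIs or genes entered under several of these settings, and the cause of the other differences was not tested. Under the remaining settings the counts were between 445 and 587 higher and between 427 and 569 lower. No named gene or list gene called in the fit with the block changed direction under any alternative. Of the 24 named genes, 0 stayed past the threshold without the block, 17 with DESeq2 (3 lost and 4 without a value), 23 with at least 20000 UMIs, 21 with 10% of spots, 22 within bins of the neuron genes and 11 after thinning (4 lost and 9 without a value), and all 24 did under each other setting. The list of T cell and B cell genes gave no value with at least 20000 UMIs, 10% of spots, 4 parts by Atf3 or thinning. Genes with few UMIs, such as Sox11, could not be tested at this depth.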

Other observations

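Some respiratory chain genes were lower in the Atf3-high spots. The list took 84 tested nuclear genes by the symbol stems of respiratory chain and ATP synthase genes, which also admit assembly factors. Of these, 17 were lower (20.2%), 0 higher and 67 not called, where 4.52% of all genes tested were lower. The median log2 fold change was −0.18. Cox7b, a subunit of cytochrome c oxidase, stood at 503, 399 and 499.9 CPM in the Atf3-high and 702, 528 and 595 CPM in the Atf3-low spots (log2 fold change −0.36; edgeR adjusted p = 0.00233). The count of lower genes was 5 without TN3, 10 without TN1, 11 without TN2, 10 within bins of the 5 neuron genes, 6 with at least 20000 UMIs or with the 10% richest spots, 1 with DESeq2 and 1 after thinning. Ribosomal protein genes had a median of 0.14, with Rpl41 and Rps18 called higher of 79 tested. That was a share of 2.53%, where 4.69% of all genes tested were higher. These 2 calls were lost within bins of the 5 neuron genes (edgeR adjusted p = 0.122 and 0.184). Both lists were taken from gene symbols after the values had been seen.

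Stress and lipid genes were called at shares near or below that of all genes tested, which was 9.21%. Of 12 genes of the integrated stress response tested, 8.33% were called. Mthfd2, a mitochondrial folate enzyme, was higher (log2 fold change 0.75; edgeR adjusted p = 0.00170), while the stress factor Atf4 was at 0.19 (edgeR adjusted p = 0.110). None of 13 endoplasmic reticulum chaperones was called by edgeR. Of 19 cholesterol synthesis genes tested, 2 were called higher (10.5%), and the median log2 fold change was 0.01.

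Another 3 abundant genes outside the lists were chosen after their values had been seen. Kif22, a kinesin of dividing cells, held 186, 454 and 210.5 CPM in the Atf3-high and 26.7, 139.9 and 60.2 CPM in the Atf3-low spots and 9.04 CPM in HC (log2 fold change 1.96; edgeR adjusted p = 5.09e-10). Vgf, a neuropeptide precursor induced by growth factors, held 166, 416 and 197 CPM against 51.3, 173 and 56.8 CPM (log2 fold change 1.55; edgeR adjusted p = 6.59e-10). Vsnl1, a neuronal calcium sensor, held 177, 70.7 and 164 CPM against 369, 189.7 and 287 CPM (log2 fold change −1.06; edgeR adjusted p = 1.02e-07).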
